A study of Mus musculus with 24 samples.

Results

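Tetraspanins are small membrane proteins that cross the membrane several times and gather integrins, immunoglobulin-domain proteins, proteases and receptors into patches called tetraspanin-enriched microdomains. They act mainly by controlling where their partner proteins sit, how they are trafficked and which other proteins they meet. In the brain, members are known from the surface of glial and neuronal cells, and several of them, among them Cd9, Cd82 and Tspan2, have been studied in cells of the oligodendrocyte lineage, which make myelin. The genes described here are every symbol in the files made of Tspan and a number, plus Cd9, Cd37, Cd53, Cd63, Cd81, Cd82 and Cd151. They number 27 of the 26694 entries in each file.

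RNA was measured in neural progenitor cells from the cortex of C57BL/6 mouse embryos at embryonic day 12, grown to passage 3 in medium with B27 and bFGF, a basic fibroblast growth factor, and then given an enantiomer of JQ1 in differentiation medium. (+)-JQ1 binds to the bromodomains of the BET family, which dock on acetylated histones and promote transcription, and (−)-JQ1 is its mirror image, labelled as the inactive form. The 8 groups were (−)-JQ1 and (+)-JQ1 at 0.2 µM for 12 h, at 0.5 µM for 12 h, at 0.2 µM for 24 h and at 0.5 µM for 24 h, each with 3 libraries from independent cell preparations, 24 in all. All groups shared the strain, the culture and the differentiation medium, and no group was left without compound. The series title concerns the formation of neurons and of glia under BET bromodomain inhibition, and the comparisons below ask how tetraspanin RNA differed between the enantiomers, the doses and the times.

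Values were FPKM (fragments per kilobase of transcript, scaled to the mapped reads of the library), which allow levels to be compared between genes because they are given per length. The FPKM of a library summed to between 431766 and 870653, and 16953 to 18201 genes were above 0. The sum stayed at or below 570329 except in 2 libraries at 0.2 µM and 24 h, (−) replicate 1 and (+) replicate 2. There, 42.7% and 46.9% of the FPKM came from the small RNA gene Mir5105, whose share was 6.69% or less in the other libraries. The progenitor genes Nes, Sox2, Vim and Fabp7 were present in every library, with medians of 72.4, 216, 1207 and 1685 FPKM in that order over the (−) libraries. Leukocytes and endothelium use several tetraspanins strongly. Of 12 markers of microglia and leukocytes, 4 (Aif1, C1qa, C1qb and C1qc) were listed at 0 in all 24 libraries and 11 stayed below 1 FPKM in each, with Cx3cr1 highest among them at up to 0.737 FPKM. The exception was Cd68, above 0 in all 24 libraries with medians of 1.75 FPKM in (−) and 2.26 FPKM in (+). Of 8 endothelial markers, Cdh5 and Cldn5 were listed at 0 throughout and 7 stayed below 1 FPKM. The exception there was Kdr, above 0 in all 24 libraries with a median of 2.97 FPKM in (−), at up to 6.58 FPKM, and of 0.938 FPKM in (+).

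Of the 27 tetraspanin genes, 21 reached at least 1 FPKM in at least 3 libraries and were tested. Cd81, known as a co-receptor partner on B cells and broadly expressed, was highest with a mean of 573 FPKM over the 24 libraries. Next came Cd63, a protein of late endosomes and exosomes, at 246 FPKM, Tspan3 at 219 FPKM and Tspan7, a tetraspanin of neurons, at 193 FPKM. Tspan31, Tspan6, Cd9 and Tspan12 lay between 38.2 and 88.3 FPKM. The 8 genes Tspan14, Tspan5, Tspan13, Tspan15, Tspan9, Cd151, Tspan4 and Cd82 lay between 12.1 and 34.6 FPKM, and the 5 genes Tspan18, Tspan17, Tspan33, Tspan2 and Tspan11 between 1.33 and 4.15 FPKM. Tspan2 reached 1 FPKM in 12 of 12 (−) libraries and 1 of 12 (+) libraries, so it entered the test through the (−) libraries. Tspan11 did so in 12 and 6 libraries. The 6 genes that were not tested stayed low in both enantiomers. They were Cd37 and Cd53, tetraspanins of leukocytes, with maxima of 0.335 and 0.0309 FPKM, Tspan32 at up to 0.379 FPKM, Tspan1 at up to 0.196 FPKM, Tspan8 at up to 0.0737 FPKM and Tspan10 at up to 0.0463 FPKM.

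**Figure D1:**
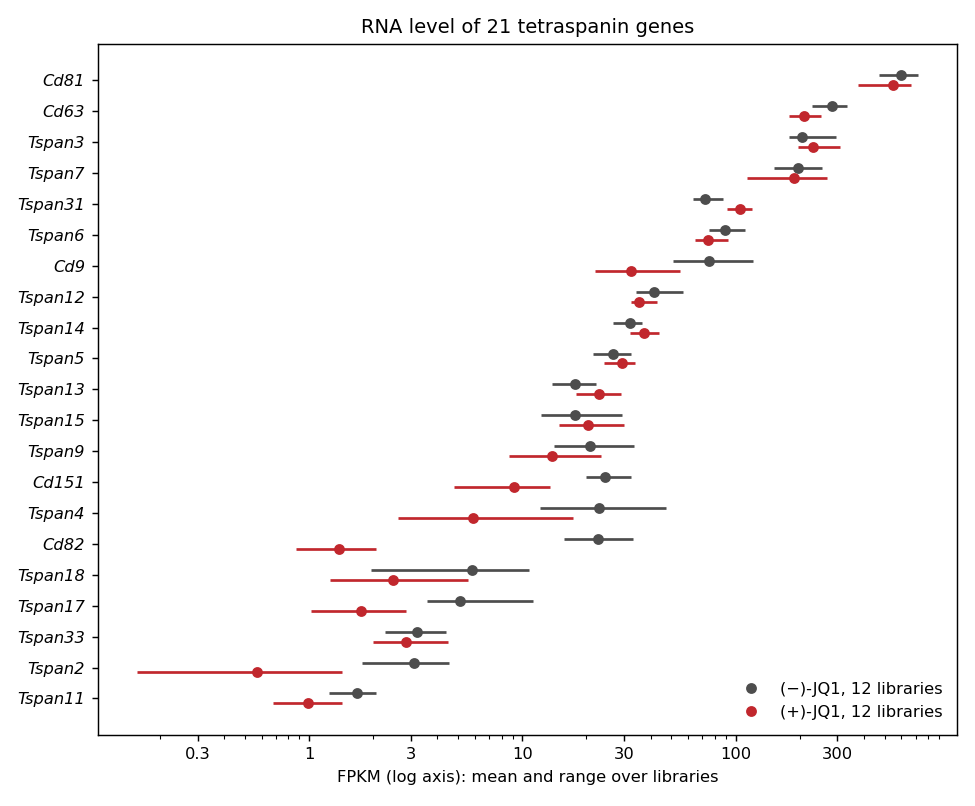
RNA level (FPKM, log axis) of the 21 tested tetraspanin genes, ordered by their mean over 24 libraries. Points are means and lines the range over 12 (−)-JQ1 libraries (grey) and 12 (+)-JQ1 libraries (red), doses and times together. The ranges of Cd82, Cd151, Tspan17, Tspan2 and Tspan31 do not overlap between the enantiomers. Those of Cd82 run from 15.6 to 32.9 FPKM in (−) and from 0.869 to 2.07 FPKM in (+). The share of all genes tested without overlap is not given here, so this is a description only.

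Under (+)-JQ1, Cd82 RNA was 10.1 to 23.3 times lower than under (−)-JQ1, the largest difference among the 21 genes at each dose and time. Tspan4, Tspan2, Cd9 and Cd151 were also at least 2-fold lower in all 4 comparisons on the log2(FPKM + 1) scale, and Tspan17, Tspan18 and Tspan11 fell in all 4 by smaller or more variable amounts. Tspan31 was the only tested member that rose in all 4. Calls rest on limma, with the Benjamini-Hochberg adjusted p below 0.05 when all 13801 genes enter the adjustment. At 0.2 µM and 12 h, 9 of the 21 members fell and 1 rose, where 19.6% of all genes tested fell and 8.23% rose. At 0.5 µM and 12 h, 10 fell and 4 rose, against 26.1% and 12.2% of all genes. At 0.2 µM and 24 h, 10 fell and 1 rose, against 21.8% and 11.0%. At 0.5 µM and 24 h, 10 fell and 2 rose, against 24.5% and 13.7%. In bulk libraries, fewer cells of a type and less RNA per cell cannot be told apart. As shares of the 21, the members that fell made up 42.9%, 47.6%, 47.6% and 47.6%, and the median log2 fold change of the members was −0.32, −0.34, −0.32 and −0.21, against −0.07, −0.10, −0.07 and −0.05 for all genes tested. Tspan2 passed the filter through its high group, so these shares are a description. Scaling by the median of ratios shifted the log2 median over all genes upward by 0.101 at 0.5 µM and 12 h, and by 0.0766 to 0.0879 in the other 3 comparisons. After it, the split at 24 h was 9 lower and 3 higher at 0.2 µM, and 9 lower and 4 higher at 0.5 µM. With only the libraries of the 2 groups in the fit, 7 members were called at 0.2 µM and 24 h instead of 11. Without (−) replicate 1 at 0.2 µM and 24 h, 6 members rose there instead of 1, and without (−) replicate 2 none did.

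**Figure D2:**
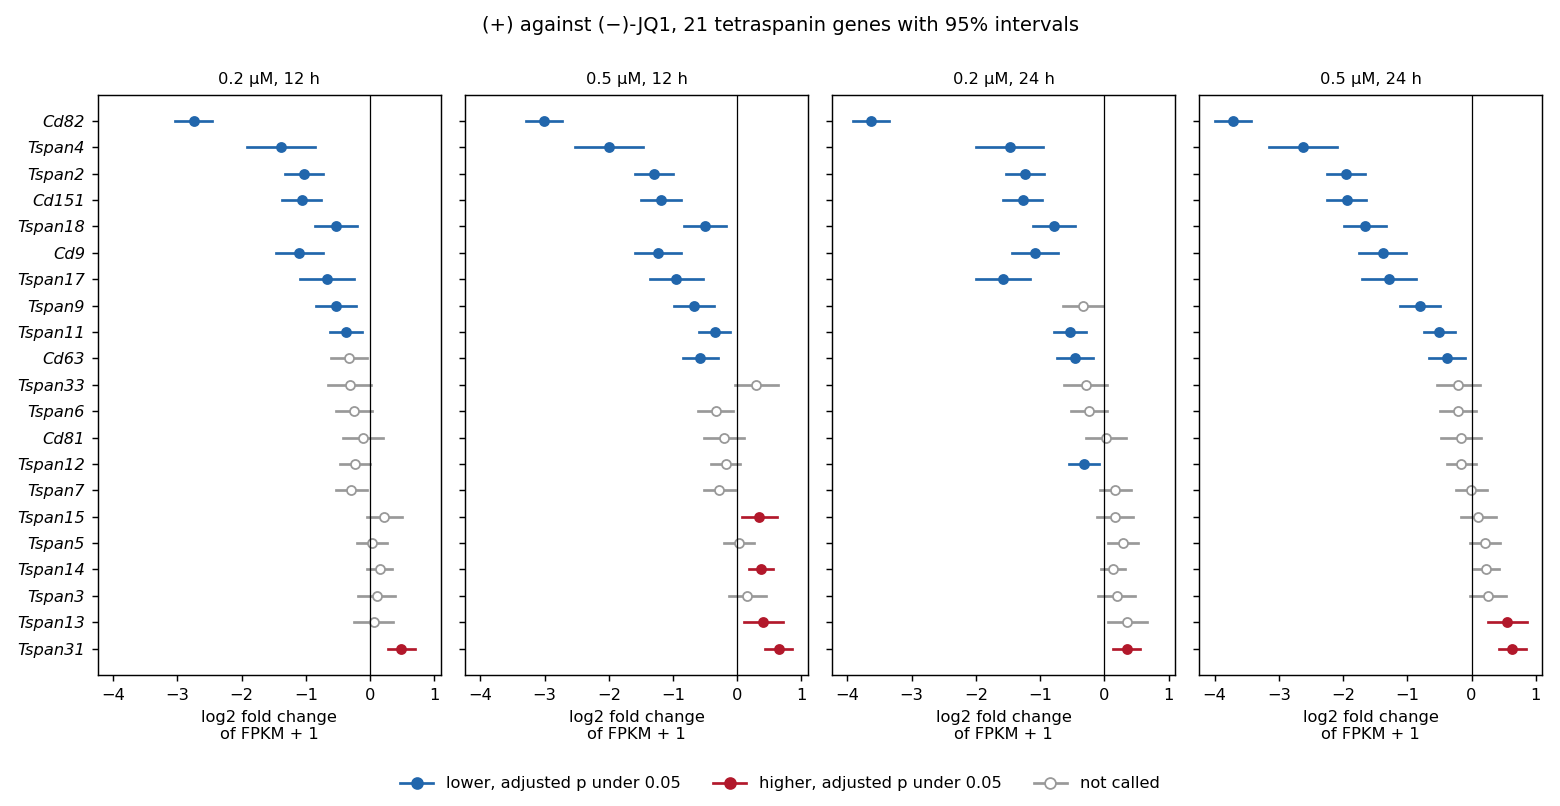
Log2 fold change of FPKM + 1 for (+) against (−)-JQ1 in the 21 tested genes, at each dose and time, with 95% intervals from limma. Filled points were called (blue lower, red higher) and open points were not. Cd82 lies farthest to the left in each panel, from −2.75 to −3.71, and Tspan31 is the only gene called higher in all 4.

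Markers of cell types were counted in the same comparisons. Of all genes tested, 19.6%, 26.1%, 21.8% and 24.5% fell there and 8.23%, 12.2%, 11.0% and 13.7% rose. Of 20 tested markers of the oligodendrocyte lineage, 17, 17, 17 and 19 fell, and their summed FPKM ran from 2279 to 3359 (median 2548) in (−) libraries and from 613 to 1742 (median 999) in (+) libraries. Of 11 tested astrocyte markers, 5, 7, 5 and 6 fell and 1, 1, 1 and 2 rose (Sox9 in each comparison, and Fgfr3 at 0.5 µM and 24 h). Of 11 tested neuron markers, 4, 6, 2 and 3 fell and 3, 4, 2 and 2 rose, among them Gap43 (log2 fold changes −2.04, −2.36, −2.12 and −2.09) and Tubb3 (0.57, 0.69, 0.68 and 1.07). As shares of the 11 neuron markers, 36.4%, 54.5%, 18.2% and 27.3% fell, so at 24 h the shares lay near those of all genes. The neuron markers summed to 158 to 283 FPKM in (−) and 163 to 329 FPKM in (+). The astrocyte markers summed to 1651 to 2788 and 1179 to 2107 FPKM. Of 10 tested markers of neural stem cells, 4, 4, 2 and 7 rose and 1, 1, 1 and 2 fell. They summed to 2844 to 5110 FPKM in (−) and 4041 to 7079 FPKM in (+). Those of pericytes and fibroblasts summed to 5.83 to 13.6 FPKM in (−) and 2.74 to 5.34 FPKM in (+). The sums for leukocytes were 1.21 to 3.89 and 1.59 to 3.93 FPKM, most of it Cd68, and those for endothelium 0.791 to 6.90 and 0.596 to 3.06 FPKM, most of it Kdr, which fell at 24 h (−0.88 and −1.33). The part of these cell types in the tetraspanin values was not tested.

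In all, 8 genes were lower in each of the 4 comparisons (Cd82, Cd9, Cd151, Tspan2, Tspan4, Tspan11, Tspan17 and Tspan18), 3 were lower in some (Cd63, Tspan9 and Tspan12), 1 was higher in each (Tspan31) and 3 were higher in some (Tspan13, Tspan14 and Tspan15). Of all 13801 genes tested, 14.6% were lower and 5.84% higher in each of the 4 comparisons, which share no libraries. No member was called in opposite directions, and 6 were not called in any. Cd82, Tspan4, Tspan2, Cd9 and Cd151 were at least 2-fold lower in every comparison, and Tspan31 rose in each. The share of all genes at this 2-fold limit is not given here. For those 6 genes, the stretch of 250 bases before the most upstream listed start is shown. The source lists 4 starts for Cd82, 2 each for Tspan4, Tspan2 and Cd151, and 1 each for Cd9 and Tspan31. Which start was used in these cells was not tested. The sequences are from RefSeq on build GRCm38.p6, not the build of the alignment, and run in the direction of the gene. Cd82 is at chr2:93462951-93463200 (− strand), Tspan4 at chr7:141474986-141475235 (+ strand), Tspan2 at chr3:102734520-102734769 (+ strand), Cd9 at chr6:125494761-125495010 (− strand), Cd151 at chr7:141467112-141467361 (+ strand) and Tspan31 at chr10:127070262-127070511 (− strand). Capitals mark any match to GGGCGG (the GC box of Sp factors), CAGCTG or CACGTG (E-boxes), CCAAT or TATAAA, on either strand, so that CCGCCC and ATTGG are matches of GGGCGG and CCAAT on the opposite strand.
Cd82: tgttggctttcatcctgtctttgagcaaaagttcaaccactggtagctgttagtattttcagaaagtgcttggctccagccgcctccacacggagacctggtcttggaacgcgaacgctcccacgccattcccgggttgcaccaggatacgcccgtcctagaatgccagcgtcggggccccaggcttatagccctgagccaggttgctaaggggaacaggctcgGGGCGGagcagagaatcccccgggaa
Tspan4: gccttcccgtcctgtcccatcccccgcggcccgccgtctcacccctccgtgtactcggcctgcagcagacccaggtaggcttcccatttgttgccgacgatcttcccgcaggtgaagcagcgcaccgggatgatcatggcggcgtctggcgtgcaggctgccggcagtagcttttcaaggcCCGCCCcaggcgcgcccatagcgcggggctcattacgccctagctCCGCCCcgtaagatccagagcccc
Tspan2: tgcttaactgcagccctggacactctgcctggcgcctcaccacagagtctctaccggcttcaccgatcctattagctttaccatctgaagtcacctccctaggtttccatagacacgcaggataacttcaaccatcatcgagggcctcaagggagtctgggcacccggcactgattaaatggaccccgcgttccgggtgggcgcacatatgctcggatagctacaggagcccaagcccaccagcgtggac
Cd9: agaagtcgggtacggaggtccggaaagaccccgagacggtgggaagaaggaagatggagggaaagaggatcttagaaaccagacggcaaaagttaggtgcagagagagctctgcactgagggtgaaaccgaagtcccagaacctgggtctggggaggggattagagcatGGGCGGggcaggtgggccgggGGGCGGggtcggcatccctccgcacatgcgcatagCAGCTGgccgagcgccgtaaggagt
Cd151: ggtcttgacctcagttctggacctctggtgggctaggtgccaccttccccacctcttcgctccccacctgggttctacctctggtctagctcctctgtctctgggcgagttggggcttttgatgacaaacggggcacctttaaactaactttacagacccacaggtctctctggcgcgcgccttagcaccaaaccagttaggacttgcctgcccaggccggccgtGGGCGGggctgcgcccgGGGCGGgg
Tspan31: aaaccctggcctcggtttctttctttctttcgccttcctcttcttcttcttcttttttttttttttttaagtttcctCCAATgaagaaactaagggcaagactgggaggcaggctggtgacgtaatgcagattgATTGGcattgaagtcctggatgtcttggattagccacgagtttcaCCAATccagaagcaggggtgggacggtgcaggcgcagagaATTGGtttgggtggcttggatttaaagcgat
GGGCGG was in the stretch before Cd82 (1 match), Tspan4, Cd9 and Cd151 (2 matches each) and not in that before Tspan2 or Tspan31. It was in 14 of the 26 members with a sequence and in 33% of all 27025 stretches of the same length. Tspan31 differed in holding 4 matches of CCAAT, which 7 of the 26 members and 34.5% of all stretches had at least once. Cd9 held the CAGCTG match of this set, which 6 of 26 members and 12.7% of all stretches had. CACGTG was before 1 of the 26 members (6.04% of all) and TATAAA before 1 (13% of all), neither of them among these 6 genes. The CG dinucleotide occurred 14 times before Cd82, 24 before Tspan4, 12 before Tspan2, 16 before Cd9, 12 before Cd151 and 7 before Tspan31, with a median of 6 over all stretches. Such matches describe the letters only. Tspan18 was the member without a sequence in the table used.

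Cd82, also known as KAI1, is a tetraspanin that restrains cell migration and is known as a suppressor of metastasis. At 0.2 µM and 12 h it stood at 20.7, 16.2 and 15.6 FPKM in the (−) libraries and at 2.07, 1.64 and 1.51 FPKM in the (+) libraries. At 0.5 µM and 12 h the values were 17.3, 15.9 and 16.1 FPKM against 1.52, 0.869 and 1.16 FPKM. Every (+) library was thus well below every (−) library at 12 h. At 24 h, 0.2 µM gave 28.3, 27.1 and 31.1 FPKM in (−) and 1.75, 1.37 and 1.12 FPKM in (+). At 24 h, 0.5 µM gave 25.4, 26.0 and 32.9 FPKM in (−) and 1.05, 1.41 and 1.16 FPKM in (+). All (−) libraries were higher at 24 h than at 12 h, while the (+) libraries of the 2 times overlapped. The ratio of group means, (−) to (+), was 10.1 and 13.9 at 12 h and 20.4 and 23.3 at 24 h, for 0.2 and 0.5 µM. In limma the log2 fold changes were −2.75, −3.01, −3.64 and −3.71 in the same order, each with an SE of 0.14, with adjusted p from 9.25e-12 down to 1.24e-14. Each of these 4 calls held under all 15 alternatives run for it, with log2 fold changes between −2.63 and −4.43 and adjusted p up to 2.07e-05.

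Cd9, the tetraspanin of the egg surface that sperm fusion needs and also a surface protein of glia, was lower under (+)-JQ1 by a little over 2-fold. At 12 h its (−) libraries held 70.9, 52.4 and 62.2 FPKM at 0.2 µM and 71.7, 50.7 and 58.8 FPKM at 0.5 µM. The (+) libraries held 32.8, 26.2 and 25.7 FPKM and 28.9, 21.9 and 24.1 FPKM. At 24 h the (−) values were 121, 82.3 and 84.5 FPKM at 0.2 µM and 79.8, 95.1 and 75.6 FPKM at 0.5 µM, and the (+) values 39.5, 55.2 and 39.7 FPKM and 28.6, 36.3 and 29.4 FPKM. The enantiomers did not overlap at either dose or time. Ratios of (−) to (+) means were 2.19, 2.42, 2.14 and 2.66 at 0.2 µM and 12 h, 0.5 µM and 12 h, 0.2 µM and 24 h, and 0.5 µM and 24 h. The log2 fold changes were −1.10, −1.24, −1.08 and −1.38 in that order (SE 0.17 each, limma adjusted p up to 6.12e-05). The order of these 4 comparisons is kept below wherever 4 values are given.

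Cd151, which binds laminin-binding integrins, showed a similar difference at 12 h and a larger one at 0.5 µM and 24 h. Its (−) libraries held 25.5, 21.96 and 26.6 FPKM and 26.9, 19.8 and 26.3 FPKM at 12 h, and its (+) libraries 11.1, 9.47 and 13.4 FPKM and 10.2, 9.22 and 10.8 FPKM, for 0.2 and 0.5 µM. At 24 h and 0.2 µM, 32.2, 20.3 and 25.4 FPKM in (−) stood against 9.94, 11.3 and 8.90 FPKM in (+). At 24 h and 0.5 µM, 21.4, 24.0 and 21.7 FPKM stood against 5.38, 4.79 and 5.07 FPKM. The (+) libraries at 0.5 µM and 24 h were thus the lowest of all and lay close together. The log2 fold changes were −1.07, −1.19, −1.27 and −1.94 (SE 0.15, limma adjusted p from 1.06e-05 to 9.99e-10).

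Cd63 and Cd81, the most abundant of the CD-named members, differed by less than 2-fold in each comparison, and only Cd63 was called. Cd63 group means were 265 ± 16.8, 275 ± 12.4, 311 ± 26.0 and 280 ± 48.6 FPKM in (−) and 210 ± 20.1, 184 ± 8.82, 226 ± 30.6 and 214 ± 31.0 FPKM in (+) (SD, n = 3). Its log2 fold changes were −0.33, −0.57, −0.46 and −0.38, and the last 3 were called (limma adjusted p 0.00175, 0.0111 and 0.0277, against 0.0713 for the first). The call at 0.2 µM and 24 h ended without (+) replicate 3 (−0.35, adjusted p 0.0758) and with only those 2 groups in the fit (0.147). That at 0.5 µM and 24 h ended without (−) replicate 1, (−) replicate 2, (+) replicate 1 or (+) replicate 3 (−0.36, −0.27, −0.40 and −0.27, limma adjusted p 0.0536 to 0.168), with median-of-ratios scaling (−0.29, 0.0763) and with only those 2 groups in the fit (0.0982). Cd63 gained a call at 0.2 µM and 12 h in the fit of those 2 groups (adjusted p 0.0305) and with library weights (0.0143). Cd81 was not called at either dose or time: its log2 fold changes were −0.11, −0.21, 0.02 and −0.17, and the 95% intervals together ran from −0.52 to 0.34. Of the 7 CD-named members, 5 were tested, and 3, 4, 4 and 4 of them fell, where 19.6%, 26.1%, 21.8% and 24.5% of all genes tested did. They were Cd82, Cd9 and Cd151 in each comparison, and Cd63 in the last 3.

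**Figure D3:**
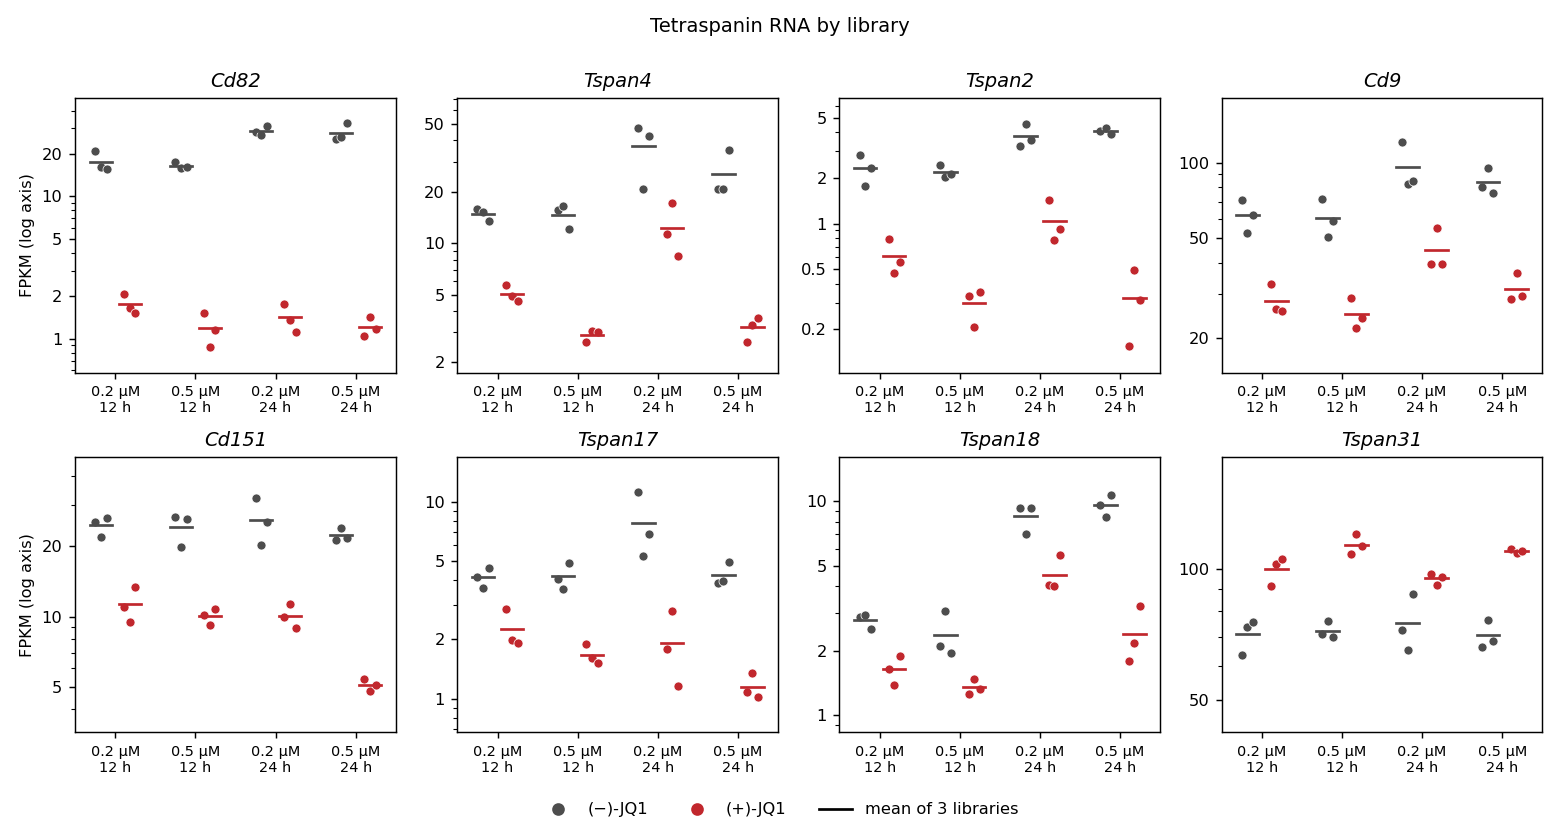
FPKM (log axis, scaled per panel) of the 7 members given by library and of Tspan31 in each of the 24 libraries, grouped by dose and time. Grey points are (−)-JQ1 libraries, red points (+)-JQ1 libraries, and lines are means of 3. In each of the 8 panels the 2 enantiomers do not overlap within any dose and time, with Tspan31 the panel in which red lies above grey. Cd82 aside, these genes were chosen by their calls and fold changes or after their values were seen. The lack of overlap is therefore a description only.

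Tspan4 is known for its role in migrasomes, the vesicles that migrating cells leave behind. On the log2(FPKM + 1) scale it had the second largest difference of the tested members in 3 of the 4 comparisons. By the ratio of (−) to (+) means, Tspan2 differed more than Tspan4 in all 4 (3.80, 7.33, 3.62 and 12.7 against 2.94, 5.07, 2.99 and 7.98). At 12 h Tspan4 stood at 15.8, 15.1 and 13.4 FPKM and at 15.6, 16.5 and 12.1 FPKM in (−), for 0.2 and 0.5 µM. In (+) it stood at 5.65, 4.88 and 4.58 FPKM and at 2.62, 3.06 and 3.03 FPKM. At 24 h the (−) libraries spread more, with 47.5, 20.7 and 42.5 FPKM at 0.2 µM and 20.8, 20.9 and 35.1 FPKM at 0.5 µM. The (+) libraries at 24 h differed by dose, with 11.3, 17.3 and 8.46 FPKM at 0.2 µM and 2.65, 3.31 and 3.66 FPKM at 0.5 µM. On the log2 scale the differences were −1.39, −2.001, −1.48 and −2.62 (SE 0.25, limma adjusted p 0.000265, 2.21e-06, 0.000125 and 4.67e-08). In the GENCODE M21 annotation, Tspan4 shares 292 exon bases with Chid1 on the opposite strand. Whether the authors' counting used the strand is not given in the sources used here, so reads there may belong to either gene. Chid1 itself was not called, at 0.23, 0.21, 0.16 and 0.35.

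Tspan2, a tetraspanin of oligodendrocytes, was low throughout and much lower in (+). Its (−) libraries held 2.85, 1.78 and 2.32 FPKM and 2.42, 2.02 and 2.12 FPKM at 12 h, and 3.24, 4.51 and 3.58 FPKM and 4.10, 4.26 and 3.88 FPKM at 24 h, for 0.2 and 0.5 µM. The (+) libraries held 0.796, 0.472 and 0.558 FPKM and 0.333, 0.208 and 0.354 FPKM at 12 h. At 24 h they held 1.43, 0.773 and 0.926 FPKM at 0.2 µM and 0.156, 0.496 and 0.312 FPKM at 0.5 µM. No (+) library reached the lowest (−) library. The ratios of (−) to (+) means were 3.80, 7.33, 3.62 and 12.7. Differences of log2(FPKM + 1), which understate ratios at such levels, were −1.04, −1.30, −1.23 and −1.95 (SE 0.14, limma adjusted p up to 1.00e-05). With a pseudocount of 0.1 they were −1.77, −2.54, −1.79 and −3.39. Tspan2 shares 88 exon bases with its antisense gene Tspan2os. Also on the opposite strand, Cd151 shares 192 exon bases with Gm10575 and Tspan12 98 with Gm30270. Cd9 shares 30 with Gm26728 and Cd81 30 with R74862. Reads in these stretches, too, may belong to either gene.

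The calls of Cd9, Cd151, Tspan4 and Tspan2 in the 4 comparisons held under all 15 alternatives run for each, the same number as for Cd82. Tspan18, linked to calcium entry in endothelial cells, and its neighbour Cd82 lie next to each other on chromosome 2, with 0 coding genes between them in the RefSeq order. At 12 h Tspan18 stood at 2.87, 2.95 and 2.53 FPKM and at 2.10, 3.06 and 1.95 FPKM in (−), and at 1.64, 1.38 and 1.89 FPKM and at 1.25, 1.48 and 1.32 FPKM in (+), for 0.2 and 0.5 µM. At 24 h and 0.2 µM it stood at 9.32, 7.04 and 9.25 FPKM in (−) and 4.04, 4.01 and 5.58 FPKM in (+). At 24 h and 0.5 µM it stood at 9.61, 8.47 and 10.7 FPKM in (−) and 1.79, 2.17 and 3.22 FPKM in (+). The 2 enantiomers were apart in each case, and all (−) libraries were higher at 24 h. The log2 fold changes were −0.52, −0.51, −0.79 and −1.66 (SE 0.16, limma adjusted p 0.0156, 0.0137, 0.000573 and 3.16e-08). Leaving out replicate 2 ended the calls at 12 h: at 0.2 µM and 12 h that of (−) (−0.49, adjusted p 0.0541) or of (+) (−0.45, 0.0751), and at 0.5 µM and 12 h that of (−) (−0.37, 0.0975).

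Other neighbours can be set side by side in the same way. Tspan32 and Cd81 lie next to each other on chromosome 7, with 0 coding genes between them. Of that pair, Tspan32 was too low to be tested and Cd81 was not called in any of the 4 comparisons. Cd151 and Tspan4 lie on chromosome 7 with 1 coding gene between them, Polr2l, a subunit of RNA polymerase II. Both tetraspanin genes fell in all 4 comparisons, and Polr2l was not called in any (−0.06, −0.10, −0.31 and 0.37). Tspan11 and Tspan9, next to each other on chromosome 6, fell in 4 and in 3 comparisons. Tspan11 group means were 1.91, 1.68, 1.71 and 1.40 FPKM in (−) and 1.25, 1.11, 0.876 and 0.697 FPKM in (+), with log2 fold changes of −0.38, −0.35, −0.53 and −0.50 (limma adjusted p 0.0215, 0.0229, 0.00164 and 0.002), or −0.59, −0.58, −0.90 and −0.91 with a pseudocount of 0.1. Its call at 0.2 µM and 12 h ended without (−) replicate 2 or 3 or (+) replicate 1 or 3 (−0.38, −0.35, −0.35 and −0.34, adjusted p 0.051 to 0.0756), and at 0.5 µM and 12 h without (−) replicate 2 or (+) replicate 1 (−0.33 and −0.24, adjusted p 0.0683 and 0.149). With only the 2 groups in the fit, the call at 0.2 µM and 24 h ended (0.0699). Tspan9, a tetraspanin of platelets, had group means of 17.5, 16.6, 26.3 and 23.1 FPKM in (−) and 11.9, 9.96, 20.2 and 12.8 FPKM in (+). It was called lower by 0.53, 0.68 and 0.81 except at 0.2 µM and 24 h (−0.34, adjusted p 0.0881), where leaving out (−) replicate 3 or (+) replicate 2 gave a call (−0.53 and −0.44, limma adjusted p 0.00699 and 0.044) and leaving out (−) replicate 1 gave −0.15.

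The TspanC8 genes (Tspan5, Tspan10, Tspan14, Tspan15, Tspan17 and Tspan33) encode the tetraspanins that carry the protease ADAM10 out of the endoplasmic reticulum and set which substrates it cuts. Of the 5 that were tested, Tspan17 fell in all 4 comparisons, and Tspan14 and Tspan15 rose at 0.5 µM and 12 h. Tspan17 stood at 4.16, 3.63 and 4.59 FPKM and at 4.05, 3.58 and 4.89 FPKM in (−) at 12 h, and at 2.84, 1.99 and 1.91 FPKM and at 1.90, 1.60 and 1.52 FPKM in (+), for 0.2 and 0.5 µM. At 24 h it stood at 11.2, 5.32 and 6.86 FPKM and at 3.86, 3.97 and 4.94 FPKM in (−), and at 1.79, 2.79 and 1.16 FPKM and at 1.08, 1.35 and 1.02 FPKM in (+). The (−) library with 11.2 FPKM is replicate 1 at 0.2 µM, which also has a high Mir5105 share. Its log2 fold changes were −0.67, −0.95, −1.57 and −1.29 (SE 0.20, limma adjusted p 0.0162, 0.000717, 3.82e-06 and 2.62e-05). The first call ended without (−) replicate 3 (−0.60, adjusted p 0.067), (+) replicate 2 (−0.61, 0.0622) or (+) replicate 3 (−0.59, 0.0663).

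Tspan14 and Tspan15, the other TspanC8 genes that changed, did so by less. Tspan14 stood at 32.9 ± 2.13 FPKM in (−) and 42.8 ± 0.993 FPKM in (+) at 0.5 µM and 12 h (SD, n = 3), a log2 fold change of 0.37 (limma adjusted p 0.00307). Tspan15 stood at 13.4 ± 1.13 and 17.4 ± 1.77 FPKM there, a log2 fold change of 0.35 (adjusted p 0.0424), and its call ended without (−) replicate 1 or 3 or (+) replicate 1 or 2 (0.35, 0.29, 0.35 and 0.28, adjusted p 0.0858 to 0.166) and with no filter on low values (0.0592). With median-of-ratios scaling Tspan15 was also called at 0.2 µM and 12 h (0.30, 0.0475). At 0.2 µM and 24 h, both gained a call without (−) replicate 1 (Tspan14 0.25, adjusted p 0.0328, and Tspan15 0.33, 0.0441). Tspan14 gained another at 0.5 µM and 24 h without (−) replicate 3 (0.27, adjusted p 0.0448), with median-of-ratios scaling (0.32, 0.00771), with library weights (0.26, 0.0102) and without the 2 libraries high in Mir5105 (0.23, 0.0158). Tspan5 and Tspan33 were not called, with 95% intervals that together ran from −0.21 to 0.52 for Tspan5 and from −0.65 to 0.63 for Tspan33. Tspan5 was called higher at 0.2 µM and 24 h without (−) replicate 1 (0.38, adjusted p 0.0157), without the 2 libraries high in Mir5105 (0.36, 0.036), with median-of-ratios scaling (0.39, 0.0164) and with the replicate number as a block (0.29, 0.0335). Under other settings Tspan33 was called in both directions: lower at 0.2 µM and 24 h without (−) replicate 2 (−0.49, adjusted p 0.0169) and at 0.2 µM and 12 h with library weights (−0.33, 0.0381), and higher at 0.5 µM and 12 h with library weights (0.30, 0.0359) and with median-of-ratios scaling (0.39, 0.0399). The summed FPKM of the TspanC8 genes ran from 76.7 to 107 (median 83.4) in (−) libraries and from 85.1 to 102 (median 89.8) in (+) libraries. Their partner Adam10 rose in all 4 comparisons, by 0.63, 0.79, 0.64 and 0.65 on the log2 scale, from a median of 38.0 FPKM in (−) to 63.7 FPKM in (+).

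Tspan31 lies beside the cell-cycle kinase gene Cdk4 and is known from the genomic region amplified with it in sarcomas. At 12 h its (−) libraries held 63.4, 73.6 and 75.6 FPKM and 70.8, 76.1 and 69.8 FPKM, for 0.2 and 0.5 µM, and its (+) libraries 91.5, 102 and 105 FPKM and 108, 120 and 113 FPKM. At 24 h, 72.3, 65.3 and 87.5 FPKM in (−) stood against 97.4, 91.9 and 95.9 FPKM in (+) at 0.2 µM. At 0.5 µM, 66.4, 76.4 and 68.3 FPKM stood against 111, 109 and 110 FPKM. Every (+) library was above every (−) library. The log2 fold changes were 0.49, 0.65, 0.35 and 0.64 (SE 0.10, limma adjusted p 0.000956, 3.15e-05, 0.0122 and 3.58e-05). The call at 0.2 µM and 24 h ended without (−) replicate 2 (0.25, adjusted p 0.0656), with only those 2 groups in the fit (adjusted p 0.216) and with library weights (0.32, 0.0725). Tspan31 and Cdk4 share 641 exon bases on opposite strands, so their reads may not be told apart there. Cdk4, at a median of 240 FPKM, had log2 fold changes of −0.39, −0.49, −0.26 and −0.31, of which the second was called (adjusted p 0.023).

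Tspan13 rose at 0.5 µM, from 16.6 ± 1.37 to 22.4 ± 3.02 FPKM at 12 h and from 16.2 ± 3.08 to 24.3 ± 4.33 FPKM at 24 h (SD, n = 3). Its log2 fold changes were 0.06, 0.40, 0.36 and 0.56 (limma adjusted p 0.824, 0.0338, 0.0658 and 0.00431). The call at 12 h ended without (−) replicate 1, (−) replicate 2 or (+) replicate 2 (0.34, 0.42 and 0.30, adjusted p 0.0619 to 0.166) and with no filter on low values (0.0505). A call was gained at 0.2 µM and 24 h without (−) replicate 1 (0.46, 0.0274) and with median-of-ratios scaling (0.45, 0.0188). Tspan12, a co-factor of the norrin receptor Fzd4, had log2 fold changes of −0.23, −0.18, −0.32 and −0.16. The third was called (limma adjusted p 0.0301), with 47.4 ± 8.20 FPKM in (−) and 37.6 ± 4.84 FPKM in (+) (SD, n = 3). That call ended without (−) replicate 1 (−0.18, adjusted p 0.173), (+) replicate 1 (−0.29, 0.0846) or (+) replicate 3 (−0.25, 0.142), with median-of-ratios scaling (−0.22, 0.072) and with only those groups in the fit (0.28). It gained a call at 0.2 µM and 12 h with only those groups in the fit (adjusted p 0.037), with library weights (0.0134) and without the 2 libraries high in Mir5105 (0.0309), and at 0.5 µM and 12 h with library weights (0.0317).

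Tspan3, Tspan6 and Tspan7 were not called at either dose or time. Tspan3, a protein that binds claudin-11, had log2 fold changes of 0.10, 0.15, 0.19 and 0.26, with 95% intervals that together ran from −0.18 to 0.54. Tspan6 had values of −0.25, −0.34, −0.23 and −0.21 and intervals from −0.62 to 0.07. Tspan7 had −0.29 and −0.28 at 12 h, and 0.17 and −0.00 at 24 h (95% intervals from −0.54 to 0.41), the last of which became 0.09 with median-of-ratios scaling. Some of these values passed the threshold under other settings. With 1 library left out these were Tspan3 and Tspan6 at 0.2 µM and 24 h without (−) replicate 1 (0.38 and −0.37, limma adjusted p 0.0211 and 0.0354) and Tspan7 at 0.5 µM and 12 h without (+) replicate 1 (−0.37, adjusted p 0.031). Tspan6 at 0.5 µM and 12 h was called with only those groups in the fit (adjusted p 0.00641), with library weights (0.00454), without the 2 libraries high in Mir5105 (0.0125) and with the replicate number as a block (0.0307). Tspan3 at 0.5 µM and 24 h was called with median-of-ratios scaling (0.35, 0.0302) and without the libraries high in Mir5105 (0.26, 0.034). Tspan7 at 12 h was called with library weights at both doses (0.0222 and 0.0132), and at 0.5 µM also with only those groups in the fit (0.0324).

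The partners of tetraspanins did not move in 1 direction. Of 20 partner genes listed, 17 were tested. In the 4 comparisons 6, 7, 8 and 6 of them rose and 5, 6, 5 and 6 fell. As shares of the 17, 35.3%, 41.2%, 47.1% and 35.3% rose, where 8.23%, 12.2%, 11.0% and 13.7% of all genes tested did, and 29.4%, 35.3%, 29.4% and 35.3% fell, where 19.6%, 26.1%, 21.8% and 24.5% of all genes did. Their median log2 fold change was 0.18, 0.23, 0.25 and 0.16. Ptgfrn and Igsf8 encode the immunoglobulin-domain proteins that bind Cd9 and Cd81 directly, and they differed in direction. Ptgfrn fell by 0.96, 1.22, 0.94 and 1.53, from a median of 13.4 FPKM in (−) to 5.25 FPKM in (+), while Igsf8 had values of 0.45, 0.31, 0.85 and 0.73, the second of which was not called. Itgb1, the integrin subunit shared by the integrins that bind Cd9, Cd81 and Cd151, was not called (0.18, 0.29, 0.09 and 0.18). Claudin-11 (Cldn11), a tight-junction protein of myelin, fell by 1.91, 2.66, 1.47 and 2.77. On the norrin pathway of Tspan12, Ndp (norrin) fell by 0.89, 1.04, 0.83 and 0.73 and Lrp5, the co-receptor, by 0.72, 1.05, 0.44 and 0.58, while Fzd4 rose by 0.75, 0.74, 0.64 and 0.73. Of the 4 family members outside the set, Rom1 alone was tested, and it fell at 24 h (−0.48 and −0.52, limma adjusted p 0.0432 and 0.0252).

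From 12 to 24 h, several tetraspanins rose in the (−)-JQ1 cultures, the course in differentiation medium with the inactive enantiomer. With the 2 doses averaged, 8 of the 21 members rose and 1 fell, where 11.0% of all genes tested rose and 4.62% fell. Tspan18 rose most, from 2.58 ± 0.463 to 9.06 ± 1.23 FPKM (SD, n = 6; log2 fold change 1.49, limma adjusted p 2.63e-08). Tspan4 rose from 14.7 ± 1.68 to 31.2 ± 12.1 FPKM (0.96, adjusted p 0.000875) and Cd82 from 16.96 ± 1.91 to 28.5 ± 2.97 FPKM (0.71, adjusted p 2.93e-05). The others that rose were Tspan15 (0.68), Tspan2 (0.60), Tspan7 (0.55), Cd9 (0.54) and Tspan9 (0.50), and Tspan5 fell (−0.31, adjusted p 0.0101).

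Under (+)-JQ1, Cd82 stood at 1.46 ± 0.413 FPKM at 12 h and 1.31 ± 0.259 FPKM at 24 h (SD, n = 6), with log2 differences of −0.19 at 0.2 µM and 0.02 at 0.5 µM, neither called. At 0.2 µM, 6 members rose from 12 to 24 h, against 2.67% of all genes that rose and 0.623% that fell: Tspan4 (1.09), Tspan18 (1.07), Tspan7 (0.94), Tspan15 (0.72), Tspan9 (0.72) and Cd9 (0.64). At 0.5 µM, 1 member rose, Tspan7 (0.90), and 2 fell, Cd151 (−0.86) and Tspan14 (−0.33), against 2.77% and 1.44% of all genes. Tspan7 thus rose with time in all 3 comparisons, from 131 ± 14.5 to 247 ± 20.04 FPKM under (+)-JQ1 (SD, n = 6, both doses together). At 0.2 µM the number that rose was 3 without (+) replicate 3 at 12 h or without (+) replicate 2 at 24 h. The Cd9 call ended without (+) replicate 2 or 3 at 12 h or any 24 h library (0.48 to 0.72, adjusted p 0.0548 to 0.221). It also ended with only those groups in the fit (0.117), library weights (0.50, 0.0524), median-of-ratios scaling (0.58, 0.0902), no filter on low values (0.0824), plain empirical Bayes (0.0563) and without the libraries high in Mir5105 (0.48, 0.122). The Tspan4 call ended without (+) replicate 2 or 3 at 12 h, or replicate 1 or 2 at 24 h (0.84 to 1.13, 0.0566 to 0.106), with only those groups in the fit (0.0687) and without the libraries high in Mir5105 (0.84, 0.0672), and that of Tspan9 without replicate 3 at 12 h or replicate 2 at 24 h (0.68 and 0.62, 0.054 and 0.05). The Tspan14 call at 0.5 µM ended whichever library was left out (−0.30 to −0.35, limma adjusted p 0.0514 to 0.198), with only those groups in the fit (0.0738) and with no filter on low values (0.0558).

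**Figure D4:**
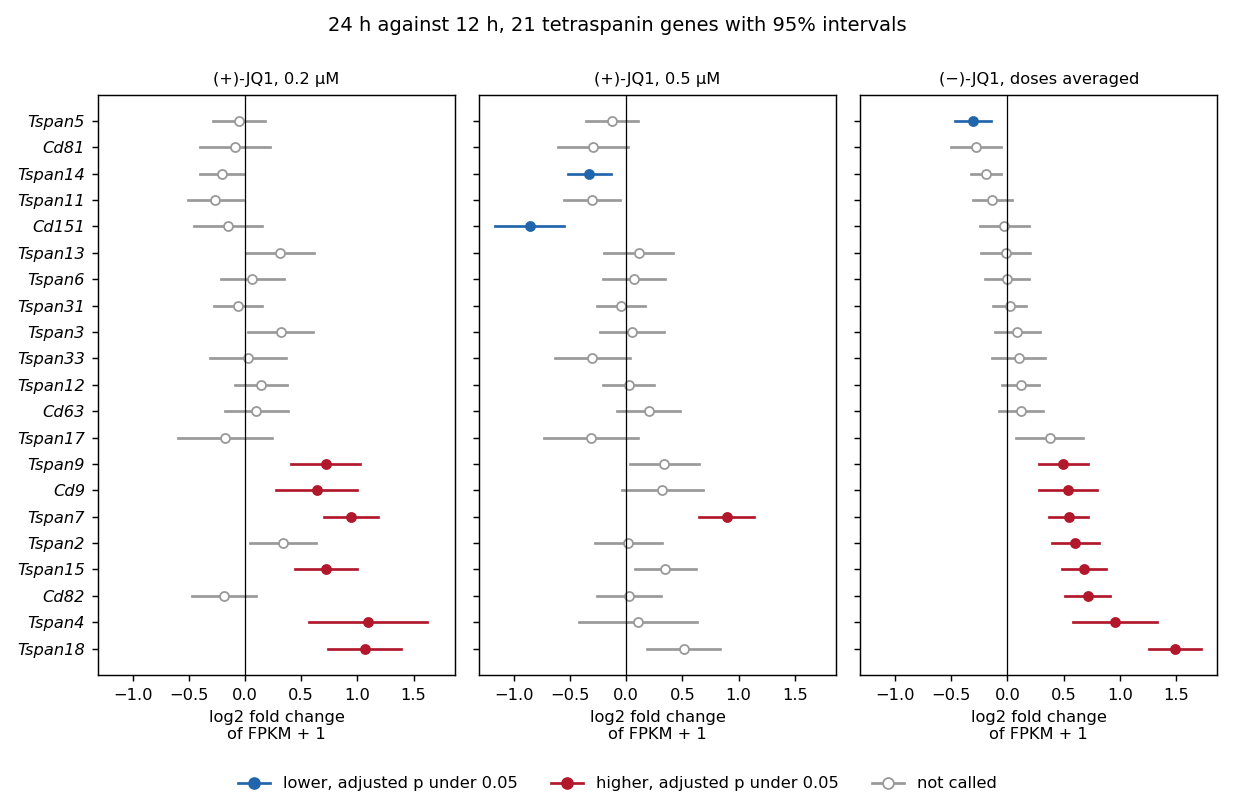
Log2 fold change of FPKM + 1 at 24 against 12 h for the 21 tested genes, with 95% intervals from limma, under (+)-JQ1 at 0.2 µM, (+)-JQ1 at 0.5 µM and (−)-JQ1 with doses averaged. Filled points were called (blue lower, red higher). Cd82 lies at 0.71 under (−)-JQ1 and at −0.19 and 0.02 under (+)-JQ1, and Tspan7 is called higher in all 3 panels.

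Whether the enantiomers differed more at 24 than at 12 h was tested directly. At 0.5 µM, 1 of the 21 members was called, Tspan18, whose difference between the enantiomers was larger at 24 h by 1.15 on the log2 scale (−1.15, SE 0.22, limma adjusted p 0.0205), where 0.326% of all genes were called. This call ended without (−) replicate 1 or 3 at 12 h, (−) replicate 1 or 3 at 24 h, (+) replicate 2 or 3 at 12 h, or (+) replicate 1 or 2 at 24 h (−1.02 to −1.16, adjusted p 0.0552 to 0.0794), with only those groups in the fit (0.0652) and with a pseudocount of 0.1 (−1.25, 0.0747). For Cd82 the larger difference at 24 h was not called at either dose (−0.89 ± 0.19 SE at 0.2 µM, limma adjusted p 0.162, and −0.71 ± 0.19 at 0.5 µM, 0.164). Tspan17 at 0.2 µM (−0.91, adjusted p 0.566), Cd151 at 0.5 µM (−0.76, 0.168) and Tspan2 at 0.5 µM (−0.66, 0.248) were not called either. At 0.2 µM limma called 0 of the 21 members and 0.0217% of all genes, and 3 members had an unadjusted p under 0.05.

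Some members were lower under 0.5 than under 0.2 µM (+)-JQ1 at 24 h. There 5 of the 21 fell, where 2.05% of all genes tested fell and 0.101% rose. They were Tspan4 (−1.62, SE 0.25, limma adjusted p 0.000916), Cd151 (−0.86, 0.15, 0.00195), Tspan18 (−0.72, 0.16, 0.0145), Tspan2 (−0.62, 0.14, 0.0189) and Tspan9 (−0.61, 0.15, 0.031). Tspan4 went from 12.3 ± 4.50 to 3.21 ± 0.515 FPKM and Cd151 from 10.0 ± 1.19 to 5.08 ± 0.291 FPKM (SD, n = 3), and the doses did not overlap in either gene. The dose difference of Cd82 within (+)-JQ1 was −0.33 at 12 h and −0.12 at 24 h, not called. Its means were 1.74 and 1.18 FPKM at 12 h, for 0.2 and 0.5 µM, and 1.41 and 1.21 FPKM at 24 h. Differences of log2(FPKM + 1) understate ratios at such levels. The Tspan18 call ended without (+) replicate 3 at 0.2 µM or replicate 1 or 2 at 0.5 µM (−0.59, −0.59 and −0.68, adjusted p 0.0782 to 0.13). The Tspan2 call ended without replicate 1 of either dose (−0.49 and −0.53, 0.108 and 0.147), and that of Tspan9 without replicate 1 or 2 of either dose (−0.51 to −0.65, 0.0549 to 0.197), with median-of-ratios scaling (−0.56, 0.0625), with no filter on low values (0.0561) and without the libraries high in Mir5105 (−0.51, 0.0627). With only the 2 groups in the fit, Tspan4 and Cd151 were the 2 still called.

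At 12 h limma called 0 members for the dose of (+)-JQ1, where 0.609% of all genes were called lower and 0.0362% higher. At an unadjusted p under 0.05 there were 4 members. The shares of all genes in this paragraph are those called, and none is given at an unadjusted p. Within (−)-JQ1, limma called 0 members and 0.0% of all genes for dose at 12 h, and 0 members and 0.00725% of all genes at 24 h. Members at an unadjusted p under 0.05 numbered 0 at 12 h and 2 at 24 h. Without (−) replicate 2 at 0.2 µM, 3 members were called at 24 h. Whether the difference between the enantiomers itself depended on dose was tested too. That test called 0 members and 0.0435% of all genes at 12 h, and 0 members and 0.29% of all genes at 24 h. Members at an unadjusted p under 0.05 numbered 1 at 12 h and 5 at 24 h. The 5 at 24 h were Tspan4 (−1.15, adjusted p 0.352), Tspan18 (−0.87, 0.156), Tspan2 (−0.72, 0.211), Cd151 (−0.67, 0.343) and Tspan9 (−0.47, 0.837). This test shares its (+) libraries with the dose comparison within (+)-JQ1. Without (+) replicate 3 at 0.5 µM, 1 member was called there.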

How the data were processed

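RNA-seq of 24 libraries (8 groups of 3 independent preparations) was analysed. Per the labels' protocols, poly(A) RNA was primed with random hexamers and read as single 50-base reads. Per the submitters' processing notes, the tools were FastQC and TopHat2 and the genome build was mm9. Not given in the sources used here are tool versions, the program that made the values, the annotation and strand use. The authors' deposited values are taken as FPKM, from their sums and their dependence on gene length (the smallest value above 0 fell with exon length over 957 genes, Spearman rho −0.65). Read numbers are not in these values, so absolute depth is unknown and no count test was run.

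Each file held 26694 entries, of which 58 with repeated symbols were left out. A gene entered the fit if 3 or more libraries reached 1 FPKM, which left 13801 genes. They were fitted as log2(FPKM + 1) with limma 3.58.1 in R 4.3.3, with 8 group means, 16 residual degrees of freedom, and trend and robust settings. The script was tested on simulated data. There were 15 comparisons, each adjusted over all genes. The p-values set a difference between groups against the spread of libraries within groups, which the fit pools over the 8 groups and adjusts with other genes. The labels do not state whether the same preparations run through all groups. Values by library are given for Cd82 and for tested members called with an absolute log2 fold change of at least 1 in any of the 4 enantiomer comparisons. Tspan31 was added after its values were seen. Of the partners, Adam10, Ptgfrn, Igsf8, Itgb1 and those called with such a change were named, and Fzd4 was added after its values were seen. The members and lists were chosen with earlier results of these data known. Alternatives were a pseudocount of 0.1, other filters, median-of-ratios scaling, a replicate block, fewer groups, library weights, plain empirical Bayes and leaving out libraries. Promoter sequences come from RefSeq (GRCm38.p6) and matched 26 of the 27 members by symbol. Exon overlaps come from GENCODE M21.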

Additional observations from a re-analysis of the deposited data

Results flagged for a closer look

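The difference between (+)- and (−)-JQ1 in Tspan18 RNA was larger at 24 h than at 12 h at 0.5 µM, by −1.15 on the log2(FPKM + 1) scale (SE 0.22, limma adjusted p 0.0205), which marks a difference of the effect between time points by a direct test. At 12 h the means were 2.37 FPKM in (−) and 1.35 FPKM in (+), and at 24 h 9.59 and 2.39 FPKM. The adjusted p was 0.0552 to 0.0794 when any of 8 of the 12 libraries was left out.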

How the results depend on the processing

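Of the values of single genes recomputed under the alternatives, 1539 kept their direction and side of the threshold, 90 lost a call, 37 gained one and 14 changed sign. All 14 were uncalled and near 0. Leaving out single libraries gave −0.0407 to 0.0839 for Cd81 at 0.2 µM and 24 h (−0.0008 and −0.0127 among them), −0.0405 to 0.127 for Tspan13 at 0.2 µM and 12 h (−0.0316), −0.0411 to 0.072 for Tspan5 at 0.2 µM and 12 h, −0.0531 to 0.106 for Tspan5 at 0.5 µM and 12 h (−0.0271, and −0.0075 with library weights), and −0.0705 to 0.04 for Tspan7 at 0.5 µM and 24 h (0.0317, 0.033 and 0.0187, and 0.0947 with median-of-ratios scaling). The number of members called between the enantiomers ranged over the libraries left out from 8 to 10 at 0.2 µM and 12 h, 11 to 14 at 0.5 µM and 12 h, 9 to 16 at 0.2 µM and 24 h, and 11 to 13 at 0.5 µM and 24 h. At 0.2 µM and 24 h it was 7 with only the groups compared. For dose within (+)-JQ1 it was 1 at 12 h with library weights, and at 24 h 2 with only the groups compared and 2 to 5 with 1 library left out. For dose within (−)-JQ1 at 24 h it was 0 to 3. For time it was 3 to 6 at 0.2 µM (+)-JQ1, 2 at 0.5 µM with any library left out and 6 with library weights, and 9 to 11 in (−)-JQ1. For the dose difference at 24 h it was 0 to 1. For the time difference at 0.5 µM it was 0 to 1 with 1 library left out, 0 with only the groups compared, 2 with library weights and 0 with a pseudocount of 0.1. The cause was not tested. No pairing of samples was assumed from the replicate numbers: 7 of 12 compared pairs had a correlation of deviations over 0.1 (range −0.345 to 0.358), and 14 of 24 libraries correlated best with their own number, which is a hint only. With the replicate block, Tspan5 at 0.2 µM and 24 h (0.29, limma adjusted p 0.0335) and Tspan6 at 0.5 µM and 12 h (−0.34, 0.0307) gained a call, and the other 106 gene values kept theirs. FPKM carry no read numbers, so for the low genes precision is known only from the spread between replicates. The fit pools that spread over the 8 groups and draws on other genes for it.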
